A study of Mus musculus with 15 samples.

Results

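A set of 10 genes of the Bcl2 family that set whether a cell survives or dies by the mitochondrial route were followed through LSK cells of a myeloproliferative neoplasm model and its treatment. They were chosen by name: the survival genes Bcl2, Bcl2l1, Mcl1 and Bcl2a1b, the pore-forming effectors Bax and Bak1, and the BH3-only genes Pmaip1, Bcl2l11, Bbc3 and Bid. All 10 were found among the 45232 gene IDs of the count table, and 9 of them passed the filter on low counts and were tested among 17834 genes. Bcl2a1b did not pass.

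In this family the survival proteins sit on the outer mitochondrial membrane and hold the effectors in check. BH3-only proteins carry upstream signals: they occupy the groove of the survival proteins or engage the effectors directly, after which Bax and Bak1 oligomerise, cytochrome c escapes and caspases are activated. Haematopoietic stem and progenitor cells are known to depend on Mcl1, and Bcl2l1 (Bcl-xL) is a known STAT5 target in cells of the erythroid lineage.

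LSK cells (negative for lineage markers, positive for Sca-1 and c-Kit), among which blood stem cells and multipotent progenitors are found, were sorted from bone marrow as CD45.2+ cells from C57BL/6 mice in 5 groups of 3 libraries. The mutant cells carried the IDH2-R140Q and JAK2-V617F mutations as conditional alleles switched on by Mx1-Cre, a Cre that responds to interferon and is not restricted to blood cells. They were mixed with equal numbers of CD45.1 WT cells and transplanted into lethally irradiated CD45.1 hosts, which received vehicle, AG221 (an inhibitor of mutant IDH2, 40 mg/kg), ruxolitinib (a JAK kinase inhibitor, 60 mg/kg) or both drugs. Dosing was by gavage and lasted 21 to 28 days, with the last dose about 1.5 hours before death. The WT group is labelled as wild type CD45.2+ LSK cells, and neither the labels nor the methods say whether those mice had been transplanted, or whether mice were pooled for a library. Adjusted p-values below therefore measure the spread between these libraries.

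Total counts per library ran from 18836625 to 32174287 (median 25545779). All 12 LSK marker genes were detected in every group, with Kit, Cd34 and Meis1 the most abundant over all libraries together. Their sum was 4482 to 4924 CPM in WT, 2777 to 4159 with vehicle, 2745 to 3069 with AG221, 3180 to 3700 with ruxolitinib and 3372 to 4068 with combined treatment. In vehicle against WT, 2 of the 12 were called higher and 3 lower, where 15.4% of all tested genes were called higher and 17.9% lower. Transcripts of 10 neutrophil granule genes were present, with Mpo, Elane and Prtn3 the most abundant over all libraries together. Their summed level was 3476 to 3833 CPM (counts per 1000000 counts of a library) in WT and 7824 to 12840 with vehicle. It was 17360 to 20470 with AG221, 12200 to 19310 with ruxolitinib and 4305 to 7727 with combined treatment. Whether these transcripts came from LSK cells or from maturing cells was not tested. In vehicle against WT, 6 of 8 mast cell and basophil genes were called higher (sum 75.5 to 156.8 CPM in WT, 636.1 to 1005 with vehicle) and 6 of 11 B and plasma cell genes lower (656.4 to 1359 CPM, 109 to 196.3 CPM), and the part of these cells in the member differences was not tested. The summed level of 22 immediate early genes, which respond within minutes to handling as well as to signalling, separated the libraries into high and low sets. It was 4693 to 16440 CPM in the vehicle, AG221 and ruxolitinib libraries, whose replicate names begin with A, and 858.5 to 1488 CPM in the combined and WT libraries, whose names begin with B. What the letter stands for is not given in the sources used here, so for comparisons across the letters (vehicle against WT, and combined treatment against vehicle, AG221 or ruxolitinib) the letter and the group cannot be told apart. All WT libraries had Xist at 455 to 511 CPM and at most 3 counts of Ddx3y, and all mutant libraries had Ddx3y at 124 to 206 CPM and Xist below 20 CPM, so sex and genotype cannot be told apart either. The AG221 libraries were not alike in Idh2: replicate A9 stood at 335 CPM, within the 212 to 568 CPM of the WT, vehicle and combined libraries, while A8 (55.1 CPM) and A10 (65.9 CPM) lay below every other library. Ruxolitinib replicate A16 (124 CPM) also lay below its group (425 and 480 CPM). Results that rest on a single library are given with and without it.

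Across the comparisons, the gene with the widest range was Pmaip1, which encodes Noxa, a BH3-only protein that binds Mcl1. Its level rose about 30-fold from WT to vehicle-treated mutant cells and fell about 12.6-fold from vehicle to combined treatment. Bcl2 moved the other way under combined treatment, and Bak1 was highest with AG221. Mcl1 and Bax were not called in any of the 8 comparisons. Calls are adjusted p-values below 0.05 from edgeR (quasi-likelihood test, Benjamini-Hochberg adjustment over all tested genes), and fold changes are log2 values with their standard errors (SE).

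**Figure D1:**
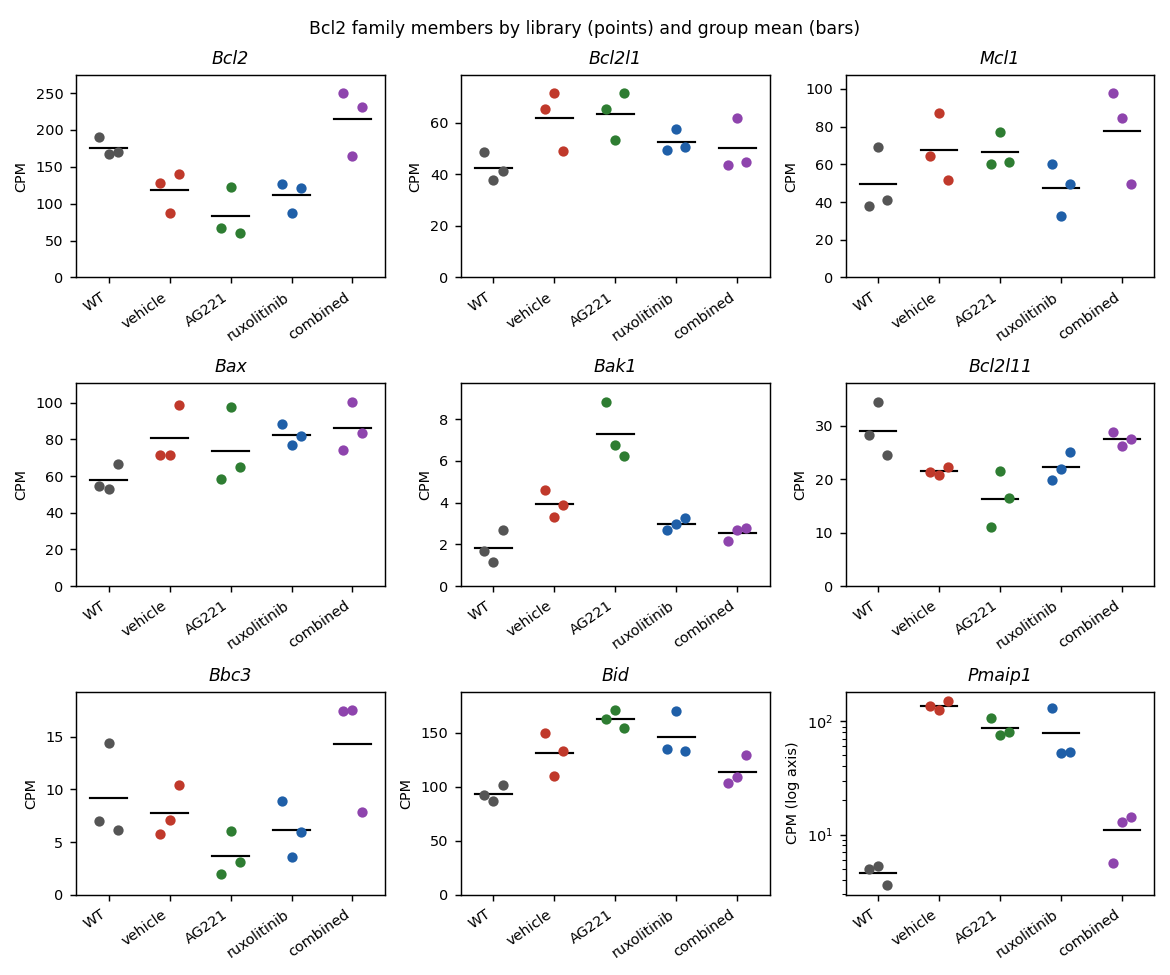
CPM of the 9 tested members in each of the 15 libraries; points are libraries, bars are group means, n = 3 per group, and the Pmaip1 axis is logarithmic. The vehicle libraries of Pmaip1 lay between 125 and 152 CPM and those of WT between 3.55 and 5.26 CPM, while the AG221 libraries of Bak1 lay above all others.

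Levels of different genes can be compared only per unit of exon length, as TPM (counts per exon base, scaled to the same sum in each library). On that scale Bax had the highest mean of the members in every group, from 141 ± 43.6 TPM (SD, n = 3) with AG221 to 187 ± 24.6 TPM with combined treatment. Bid followed it in WT (102 ± 7.96 TPM), AG221, ruxolitinib and combined cells. Bcl2, at 74.5 ± 8.18 TPM, came next in WT cells and, at 80.9 ± 18.7 TPM, under combined treatment. In vehicle cells Bcl2 stood lower in the order, at 42.4 ± 8.95 TPM, and Pmaip1 stood second at 166 ± 11.8 TPM, beside Bax at 167 ± 28.0 TPM. Pmaip1 was eighth in WT cells, at 6.52 ± 1.37 TPM. The neighbours Bcl2l1 and Bcl2 in vehicle cells, at 44.5 ± 9.40 and 42.4 ± 8.95 TPM, and Bax and Pmaip1 there, differed by less than their spread, as did Bcl2 and Mcl1 (77.7 ± 25.9 TPM) under combined treatment, and Bax and Bid (138 ± 8.65 TPM) with AG221, which swapped places with the mean transcript length (145 and 168 TPM). Bak1 was ninth in all groups except AG221, and Bcl2a1b was last everywhere. The order depends on the length used. With the mean transcript length in place of the union of exons, 2 to 8 of the 10 members changed rank, by group. In vehicle cells Pmaip1 then stood at 89.0 TPM, below Bid (143 TPM) and well below Bax (168 TPM). Its nearness to Bax therefore held only with the union of exons. Bcl2l1 and Bcl2 in vehicle cells also lay further apart, at 57.1 and 31.8 TPM.

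Among the survival genes, Bcl2 encodes the founding member of the family. In WT cells it stood at 191, 168 and 169.5 CPM, and in vehicle cells at 128, 87.7 and 139.9 CPM. The AG221 libraries held 67.2, 123 (A9) and 60.5 CPM, and the ruxolitinib libraries 127, 87.6 and 121 CPM. Under combined treatment the values were 250.2, 165 and 231 CPM. The libraries named B thus lay between 165 and 250.2 CPM and those named A between 60.5 and 139.9 CPM, without overlap. Combined treatment was above vehicle (log2 fold change 0.86, SE 0.266, adjusted p = 0.0497), above AG221 (1.37, SE 0.269, adjusted p = 0.00374) and above ruxolitinib (0.94, SE 0.266, adjusted p = 0.033). The difference from vehicle was lost whenever any of the 6 libraries was left out, with adjusted p-values between 0.0521 and 0.188, and also with upper quartile scaling (0.0515) and GC offsets (0.0619), and that from ruxolitinib was lost when any library other than combined replicate B25 was left out, with adjusted p-values between 0.0549 and 0.156. The difference from AG221 was called without each of its 6 libraries. Vehicle against WT gave −0.57 (SE 0.265, adjusted p = 0.109; 0.0363 in a fit of the compared groups alone), and combined treatment against WT, both named B, 0.29 (SE 0.264, adjusted p = 0.51).

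Bcl2l1 encodes Bcl-xL, the family's main survival protein of late erythroid cells and platelets. Its WT libraries held 48.6, 37.8 and 41.5 CPM, and its vehicle libraries 65.4, 71.6 and 49.1 CPM. The vehicle libraries lay above the WT libraries, the lowest by a small margin, and the difference was called (0.54, SE 0.188, adjusted p = 0.041). The call was lost without vehicle replicate A1 or A3 or WT replicate B30 or B31, with adjusted p-values up to 0.153. It was also lost with upper quartile scaling (adjusted p = 0.12), without a count filter (0.0543), with 10 counts required in every library (0.0885) and in a fit of the compared groups alone (0.0526). The log2 fold change stayed at 0.45 to 0.71 with a library left out and at 0.43 to 0.66 under other settings. With AG221 the level was 65.4, 53.4 and 71.6 CPM, with ruxolitinib 49.6, 57.8 and 50.7 CPM, and with both drugs 43.6, 61.9 and 44.9 CPM. All of these groups overlapped vehicle, and no treatment comparison was called for Bcl2l1 in the fit reported here (with upper quartile scaling combined treatment was below AG221, −0.66, adjusted p = 0.0256), with 0.033 (95% interval −0.37 to 0.44) for AG221, −0.24 (−0.64 to 0.17) for ruxolitinib and −0.31 (−0.71 to 0.097) for both drugs against vehicle. Markers of megakaryocytes, a lineage in which Bcl-xL is known to act, moved in the same direction between WT and vehicle: the summed level of 8 such genes was 257.8 to 348.7 CPM in WT and 882.6 to 944.1 CPM with vehicle, and 4 of the 8 were called higher. The summed level of 11 erythroid genes was 1616 to 1770 CPM in WT and 1861 to 2887 CPM with vehicle, and 4 of the 11 were called higher and none lower. Of all tested genes, 15.4% were called higher and 17.9% lower in this comparison. In sorted bulk RNA more cells of a type and more RNA per cell cannot be told apart, and the part of these cells in the Bcl2l1 difference was not tested. Cells that carry the erythroid marker Ter119 are excluded by the staining for LSK cells in the study's methods.

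Mcl1 encodes a survival protein with a short half-life. Its lowest and highest libraries were 38.1 and 69.0 CPM in WT, 51.7 and 87.0 CPM with vehicle, 60.3 and 77.2 CPM with AG221, 32.5 and 59.9 CPM with ruxolitinib, and 49.7 and 97.8 CPM with combined treatment. These ranges overlapped in all comparisons except AG221 against ruxolitinib, where the lowest AG221 library (60.3 CPM) was just above the highest ruxolitinib library (59.9 CPM). The widest difference was combined treatment against ruxolitinib, 0.71 (95% interval 0.046 to 1.37), with an unadjusted p of 0.0378 and an adjusted p of 0.165. Vehicle against WT gave 0.45 (95% interval −0.20 to 1.11, adjusted p = 0.26), an interval that spans more than a 2-fold rise.

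Bcl2a1b is a survival gene of the A1 group that is best known from neutrophils. It had few counts, with 0 to 6 per library and no more than 0.201 CPM. A count of 0 allows up to 3 counts, which is 0.0957 to 0.157 CPM at these depths, counting error only. Of its annotated exons, 49.1% overlap Gm29094 on the same strand, which has 0 counts in the table. The near-identical paralogs Bcl2a1a and Bcl2a1d may share reads with it, which was not tested, so the counts of all 3 were also summed. How reads that fit several of them were counted is not stated, so low counts may not mean low expression. The sum was 23 to 29 counts in WT, 9 to 26 with vehicle, 23 to 29 with AG221, 11 to 19 with ruxolitinib and 12 to 15 with combined treatment. The combined libraries lay below those of AG221 and of WT, and the ruxolitinib libraries below those of AG221, without overlap in that sum, and no comparison of it was called, the smallest adjusted p being 0.0857 for combined treatment against AG221 (−0.91, SE 0.388). Scaled to library size, the sum was 0.946 to 1.36 CPM with AG221, 0.775 to 0.972 CPM in WT and 0.355 to 0.978 CPM with vehicle. The neutrophil granule genes also reached their highest sum with AG221, at a far higher level (20470 CPM).

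The effector genes differed in level and in behaviour. Bax lay between 52.8 and 66.7 CPM in WT, 71.5 and 98.8 CPM with vehicle, 58.2 and 97.7 CPM with AG221, 76.9 and 88.2 CPM with ruxolitinib and 74.1 and 100.7 CPM with combined treatment. All vehicle and all combined libraries were above all WT libraries, with 0.48 (95% interval 0.036 to 0.91, adjusted p = 0.0858) and 0.57 (0.13 to 1.01, adjusted p = 0.112), neither of which was called. With offsets for GC content (58.4% in Bax transcripts) the first became 0.75 and was called (adjusted p = 0.00803), and the sign of Bax turned from negative to positive in AG221 against vehicle and against ruxolitinib, and from positive to negative in combined treatment against vehicle, AG221 and ruxolitinib. A share of 12.2% of its exons overlaps Gm45808 on the same strand.

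Bak1, the second effector, was low but countable, with 34 to 207 counts per library. In WT it stood at 1.67, 1.15 and 2.68 CPM, and with vehicle at 4.59, 3.29 and 3.87 CPM. The AG221 libraries held 8.85, 6.76 and 6.22 CPM. Those of ruxolitinib held 2.69, 2.99 and 3.28 CPM, and those of combined treatment 2.14, 2.70 and 2.78 CPM. All AG221 libraries were above every other library of the study, and vehicle was above WT without overlap. Vehicle was called higher than WT (1.09, SE 0.292, adjusted p = 0.0154), a call lost without vehicle replicate A1 (adjusted p = 0.0535) or WT replicate B30 (0.0717). AG221 was called higher than ruxolitinib (1.28, SE 0.29, adjusted p = 0.0368), and combined treatment lower than AG221 (−1.52, SE 0.293, adjusted p = 0.00355). The call against ruxolitinib was lost when any library other than A9 was left out, with adjusted p-values up to 0.151, without a count filter (0.0669) and in a fit of the compared groups alone (0.238), whereas the call between combined treatment and AG221 held without each of the 6 libraries. AG221 against vehicle, 0.89 (SE 0.286, adjusted p = 0.0968), was not called by edgeR and was called by DESeq2 (0.94, adjusted p = 0.019).

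Bak1 followed the neutrophil granule genes from group to group, with exceptions. Both were lowest in WT and highest with AG221. The granule sum had a higher range with ruxolitinib (12200 to 19310 CPM) than with vehicle (7824 to 12840 CPM), with overlap. Bak1 was not higher with ruxolitinib than with vehicle (−0.39, SE 0.288, not called). Its highest ruxolitinib library (3.283 CPM) was only just below its lowest vehicle library (3.286 CPM). Of 10 granule genes, 4 were called higher in vehicle than in WT, where 15.4% of all tested genes were. In combined treatment 7 were called lower than in AG221, where 14.3% of all tested genes were. Staining for LSK cells in the study's methods excludes cells that carry the granulocyte markers Gr-1 and Mac1. Which cells held the granule gene transcripts was not tested, nor was the part of such cells in the Bak1 differences. Of the Bak1 exons, 25.5% overlap Ggnbp1 on the opposite strand, and the strand setting of the counting is not given in the sources used here. Ggnbp1 itself stood at 0.97 to 3.65 CPM and was highest in WT, where Bak1 was lowest.

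Among the BH3-only genes, Pmaip1 had the largest change. In WT cells it stood at 4.97, 5.26 and 3.55 CPM, and in vehicle cells at 137, 125 and 152 CPM. With AG221 it was 107.5, 76.2 and 80.1 CPM. With ruxolitinib it was 132.5, 52.9 and 53.4 CPM, and with both drugs 5.64, 13.0 and 14.2 CPM. The A libraries (52.9 to 152 CPM) and the B libraries (3.55 to 14.2 CPM) did not overlap. Vehicle was above WT by 4.91 (SE 0.431, adjusted p = 1.88e-05). Combined treatment was below vehicle by a log2 fold change of −3.65 (SE 0.404, adjusted p = 0.000258), below AG221 by −3.00 (SE 0.394, adjusted p = 0.000922) and below ruxolitinib by −2.86 (SE 0.391, adjusted p = 0.00111). All 4 calls were made under every normalization, filter, GC offset and left-out library tried.

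Within the A libraries, all AG221 libraries were below all vehicle libraries in Pmaip1 (−0.65, SE 0.363, adjusted p = 0.274), and ruxolitinib against vehicle gave −0.80 (SE 0.364, unadjusted p = 0.0468, adjusted p = 1), with replicate A14 within the vehicle range and the other ruxolitinib libraries well below it. Without A14 the value was −1.38 (adjusted p = 0.653). AG221 and ruxolitinib differed by 0.14 (95% interval −0.64 to 0.92). Within the B libraries, all combined libraries were above all WT libraries (1.26, SE 0.382, adjusted p = 0.0761), which was not called in the fit reported here and was called with GC offsets (1.46, adjusted p = 0.0478), without a count filter (1.28, 0.029), without combined replicate B24 (1.58, 0.0402) and by DESeq2 (1.28, 0.0237).

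The immediate early genes moved with Pmaip1. Their summed level was 1241, 1206 and 913.3 CPM in WT, 9269, 16440 and 7701 CPM with vehicle, and 1488, 965.6 and 858.5 CPM with combined treatment. Of the 22 genes, 17 were called higher in vehicle than in WT, where 15.4% of all tested genes were. With combined treatment 14 were called lower than with vehicle, where 4.21% of all tested genes were. No gene of the list was called between combined treatment and WT. Within the vehicle group the order differed, since the library with the highest immediate early sum (A3) had the lowest Pmaip1 level. Whether the state behind the immediate early genes has a part in the Pmaip1 difference was not tested. The 3 genes most like Pmaip1 over the 15 libraries were Hspa5 (Pearson's r = 0.975), which encodes the endoplasmic reticulum chaperone BiP, Cxcl2 (r = 0.974), a neutrophil chemokine, and Osm (r = 0.967), a cytokine. These correlations describe libraries that share the same split into A and B names.

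**Figure D2:**
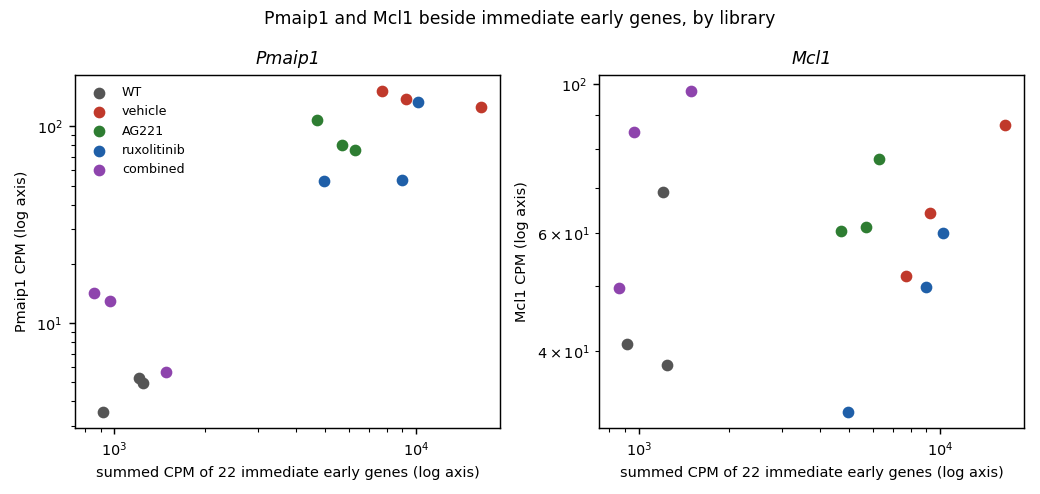
Level of Pmaip1 (left) and Mcl1 (right) against the summed level of 22 immediate early genes, each point 1 library, both axes in CPM on log scales. Pmaip1 fell into a low set (WT and combined treatment, 3.55 to 14.2 CPM) and a high set (vehicle, AG221 and ruxolitinib, 52.9 to 152 CPM), whereas the Mcl1 values of both sets overlapped.

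Bcl2l11 encodes Bim, a BH3-only protein that binds all survival members of the family. Its WT libraries held 28.2, 34.6 and 24.6 CPM, and its vehicle libraries 21.4, 20.7 and 22.3 CPM. With AG221 it stood at 11.03, 21.5 (A9) and 16.4 CPM, and with ruxolitinib at 19.9, 21.96 and 25.1 CPM. The combined libraries held 28.9, 26.2 and 27.6 CPM. Combined treatment was above vehicle, AG221 and ruxolitinib without overlap, and was called against AG221 (0.76, SE 0.215, adjusted p = 0.0174) but not against vehicle (0.36, adjusted p = 0.315) or ruxolitinib (0.30, adjusted p = 0.418). The call was lost without AG221 replicate A8 or A10 or combined replicate B24, with adjusted p-values up to 0.093, and also with upper quartile scaling (0.48, adjusted p = 0.0801) and in a fit of the compared groups alone (adjusted p = 0.0792). Vehicle was below WT without overlap, by −0.44 (SE 0.213, adjusted p = 0.123).

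Bbc3, which encodes Puma, a BH3-only protein known as a p53 target, was low. It stood at 7.003, 14.4 and 6.17 CPM in WT and at 5.79, 7.08 and 10.5 CPM with vehicle. The AG221 libraries held 1.97, 6.00 (A9) and 3.06 CPM and the ruxolitinib libraries 8.90, 3.59 and 5.93 CPM. With both drugs it was 17.5, 17.6 and 7.86 CPM. Combined treatment was above AG221 without overlap and was called higher (1.96, SE 0.494, adjusted p = 0.0101). Bbc3 transcripts have the highest GC content of the members, 68.6%, and with GC offsets this difference changed sign to −0.37 (adjusted p = 0.408). The same offsets turned the sign of Bbc3 in vehicle against WT, from −0.24 to 0.70, in combined treatment against vehicle, from 0.88 to −0.39, and in 2 further comparisons. Without AG221 replicate A8 the call between combined treatment and AG221 was lost (adjusted p = 0.0515).

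Bcl2l11 and Bbc3 were both called higher with combined treatment than with AG221 in the fit without GC offsets, and for them the stretches before their transcription starts that hold the FOXO or EGR letters are shown. Bcl2 was called higher there too, and none of the searched letters was found in its window, so the genes shown were in part picked by these letters. Windows of 250 bases before to 50 after each start came from RefSeq (GRCm38.p6), where 9 of the 10 members had 14 windows, Pmaip1 being the one not matched. Capitals mark the FOXO letters GTAAACA, the CCAAT box (here as ATTGG, its reverse complement) and the EGR letters GCGGGGGCG. Both Bcl2l11 and Bbc3 are known FOXO3 targets, and Foxo3 levels are given with the upstream transcription factors. The first stretch is chr2:128125788-128126037, the 250 bases before the Bcl2l11 start; the second is chr7:16309483-16309582, the 100 bases before the first Bbc3 start; the third is chr7:16310081-16310110, which begins 180 bases before the second Bbc3 start and holds the FOXO letters on the reverse strand (as TGTTTAC). All are on the + strand, 5′ to 3′.
Bcl2l11: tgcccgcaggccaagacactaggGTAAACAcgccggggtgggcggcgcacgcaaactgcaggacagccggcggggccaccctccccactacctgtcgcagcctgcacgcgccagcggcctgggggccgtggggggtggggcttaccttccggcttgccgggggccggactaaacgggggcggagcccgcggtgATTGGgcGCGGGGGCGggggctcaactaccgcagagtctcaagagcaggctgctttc
Bbc3 start 1: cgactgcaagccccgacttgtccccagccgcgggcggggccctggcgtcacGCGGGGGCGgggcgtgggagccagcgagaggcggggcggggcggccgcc
Bbc3 start 2: ggtctggcgggttTGTTTACaaacaatggg

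In all, 9 motifs were searched on both strands. The FOXO letters occurred in 3.65% of all 32851 RefSeq windows, the EGR letters in 2.91% and CCAAT in 37.4%, and among the members each of the FOXO and EGR letters occurred only in windows of Bcl2l11 and Bbc3, and CCAAT likewise. Further CCAAT matches, in stretches not shown, lie 106 and 74 bases before the second Bcl2l11 start and 100 bases before the third Bbc3 start. The EGR letters lie 50 bases before the start in Bcl2l11 and 49 bases before it in Bbc3, and overlap no other searched motif there. The STAT letters TTCNNNGAA (8.30% of windows), the CRE letters TGACGTCA (1.79%) and the heat shock element (0.603%) were in no member window. The AP-1 letters TGANTCA (7.81%) and the amino acid response letters TGATGNAA (3.97%) were found for Bcl2a1b only, and the NF-kB letters GGGANTTCC (1.68%) for Bcl2l1 only. The shares are over windows of any GC content, whereas the windows of Bcl2l11 and Bbc3 held 71 to 78% GC. A match of letters is not a measured binding site.

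Bid, whose protein is cleaved by caspase-8 and so links death receptors to the mitochondrion, varied within a narrow range. It stood at 92.1, 87.0 and 101 CPM in WT and at 149.6, 109.5 and 133 CPM with vehicle, without overlap. AG221 libraries held 163, 171 and 154 CPM, ruxolitinib libraries 134, 170.1 and 133 CPM, and combined libraries 103, 109 and 129.5 CPM. The level was higher in vehicle than in WT (0.49, SE 0.147, adjusted p = 0.0245) and lower with combined treatment than with AG221 (−0.51, SE 0.147, adjusted p = 0.0178). The first call was lost without vehicle replicate A1 or A4 or WT replicate B28 or B30 (adjusted p-values up to 0.0996), with upper quartile scaling (0.102) and with 10 counts required in every library (0.0594), and the second without combined replicate B24 or B25 (up to 0.0866). AG221 was above vehicle without overlap at 0.31 (SE 0.147, adjusted p = 0.199). The group means of Bid had the same order as the medians of the neutrophil granule sum, lowest in WT, then combined treatment, vehicle, ruxolitinib and AG221. The part of cells that held granule gene transcripts in the Bid differences was not tested either. Of the Bid exons, 17.7% overlap Bcl2l13 on the opposite strand, which stood at 79.0 to 244 CPM.

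Read by comparison, vehicle against WT called 4 of the 9 tested members, all higher (Pmaip1, Bak1, Bid and Bcl2l1), where 33.3% of all tested genes were called, 15.4% higher and 17.9% lower. The median log2 fold change of the 9 members was 0.48, and that of all tested genes −0.091. For 7 members the vehicle and WT libraries did not overlap, as for 56.9% of all genes. Of the 4, Bcl2l1 encodes a survival protein and the others encode proteins that promote death. The number fell to 1, Pmaip1, without vehicle replicate A1, where 18.3% of all genes were called, or WT replicate B30, where 10.5% were.

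In edgeR, single drugs against vehicle called few genes and no members. AG221 against vehicle called none of the 9 members and 0.987% of all genes. At an unadjusted p under 0.05 there were 2 members, Bak1 and Bbc3, as for 25.2% of all genes, and DESeq2 called 1, Bak1, beside 15.4% of the genes to which it gave an adjusted p. For 3 members (Bak1 and Bid above, Pmaip1 below vehicle) the libraries did not overlap, as for 20% of all genes. Without AG221 replicate A9, 3 members were called lower with AG221 than with vehicle: Bcl2 (−0.90, adjusted p = 0.0122), Bcl2l11 (−0.65, adjusted p = 0.0297) and Bbc3 (−1.63, adjusted p = 0.0343). The share of all genes called was then 24.4%, so these 3 calls came with a much wider change of the comparison. Replicate A9 was the AG221 library nearest to the vehicle mean for 4 of the 9 members. That is close to an even split over the 3 AG221 libraries, and the share over all genes was not computed. Ruxolitinib against vehicle called no member by edgeR or DESeq2, and edgeR called 0.0168% of all genes. At an unadjusted p under 0.05 there was 1 member, Pmaip1, beside 4.56% of all genes. For Bak1 alone the libraries did not overlap, against 8.17% of all genes, and only by the margin between 3.283 CPM (ruxolitinib) and 3.286 CPM (vehicle).

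Set against each other, the single drugs differed in Bak1 only, as described above, where 3.43% of all genes were called. In 2 members, Bak1 and Mcl1, the libraries did not overlap, against 20.8% of all genes. Without AG221 replicate A9, Bcl2 (−0.81, adjusted p = 0.0195) and Bcl2l11 (−0.70, adjusted p = 0.0204) were also lower with AG221 than with ruxolitinib, and 25.1% of all genes were called.

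Combined treatment called 2 members against vehicle, Bcl2 higher and Pmaip1 lower, where 12.5% of all genes were called, 8.28% higher and 4.21% lower. For 4 members the libraries did not overlap, against 34.7% of all genes: Bcl2 and Bcl2l11 were above vehicle, and Bak1 (−0.62, adjusted p = 0.19) and Pmaip1 below it. Against ruxolitinib the same pair was called, where 12.4% of all genes were called, and 4 members did not overlap, against 35.5% of genes. These comparisons share the 3 combined libraries.

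Against AG221, combined treatment called 6 of the 9 members, where 33.2% of all genes were called, 18.9% higher and 14.3% lower. Bcl2, Bcl2l11 and Bbc3 were higher, and Pmaip1, Bak1 and Bid were lower, so that BH3-only genes were among both sets. The same 6 members did not overlap, against 44.6% of all genes. Of these calls, that of Bbc3 depended on the GC content as given above. Without AG221 replicate A9, 7 members were called, Bax being added (0.49, adjusted p = 0.0452), and 42.6% of all genes. Bax was −0.46 with GC offsets (adjusted p = 0.06) when all libraries were kept.

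Combined treatment against WT, a comparison within the B libraries, called no member by edgeR and 3.25% of all genes. At an unadjusted p under 0.05 there were 2 members, Pmaip1 and Bax, as for 25.4% of all genes, and DESeq2 called 1, Pmaip1, beside 8.23% of its genes. For 3 members, Pmaip1, Bax and Bid, all combined libraries were above all WT libraries, against 41.6% of genes that did not overlap in either direction. The median over the members was 0.47 and over all genes 0.038.

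**Figure D3:**
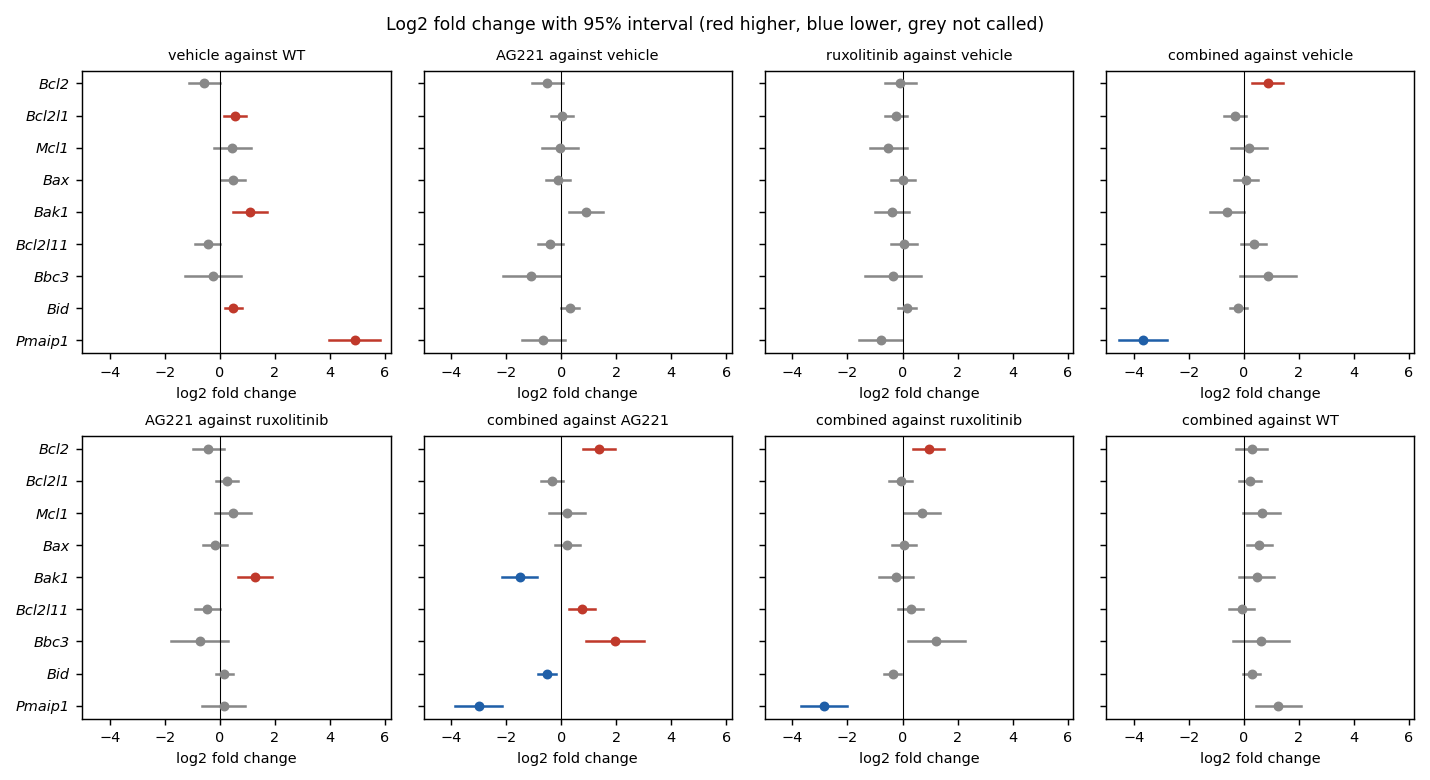
Log2 fold change of each tested member in the 8 comparisons, with its 95% interval from the edgeR fit; red points were called higher, blue points lower and grey points were not called. Pmaip1 spans 4.91 in vehicle against WT to −3.65 in combined treatment against vehicle, and most other members lie within 1 log2 unit of 0.

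Ratios of 2 members within a library do not depend on how the library was scaled, although they still depend on GC content and length. The log2 ratio of Bax to Bcl2 CPM was −1.81, −1.67 and −1.35 in WT, and −0.84, −0.30 and −0.50 with vehicle, so that all vehicle ratios were above all WT ratios. It was −0.21, −0.33 and 0.098 with AG221 and −0.53, −0.19 and −0.56 with ruxolitinib. Under combined treatment it was −1.76, −0.71 and −1.47, with B25 inside the vehicle range and the others near WT. The log2 ratio of Bcl2l1 to Bcl2 ran from −2.15 to −1.97 in WT and from −1.51 to −0.29 with vehicle, also without overlap. It ran from −2.52 to −1.41 under combined treatment, which overlapped both. Bcl2l11 over Mcl1, the pair of a BH3-only protein and one of its binding partners, ran from −0.999 to −0.43 in WT, −2.07 to −1.22 with vehicle and −2.45 to −1.85 with AG221. With ruxolitinib it ran from −1.59 to −0.56, overlapping WT and vehicle, and with combined treatment from −1.76 to −0.85, likewise. The other 2 ratios overlapped between WT and vehicle. Mcl1 over Bcl2 ran from −2.323 to −1.281 in WT and from −1.436 to −0.012 with vehicle. Bbc3 over Bax ran from −3.435 to −1.875 in WT and from −3.63 to −3.24 with vehicle. For single genes, the vehicle and WT libraries did not overlap for 56.9% of all tested genes, and no such share was computed for ratios. These values are descriptions without a test.

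**Figure D4:**
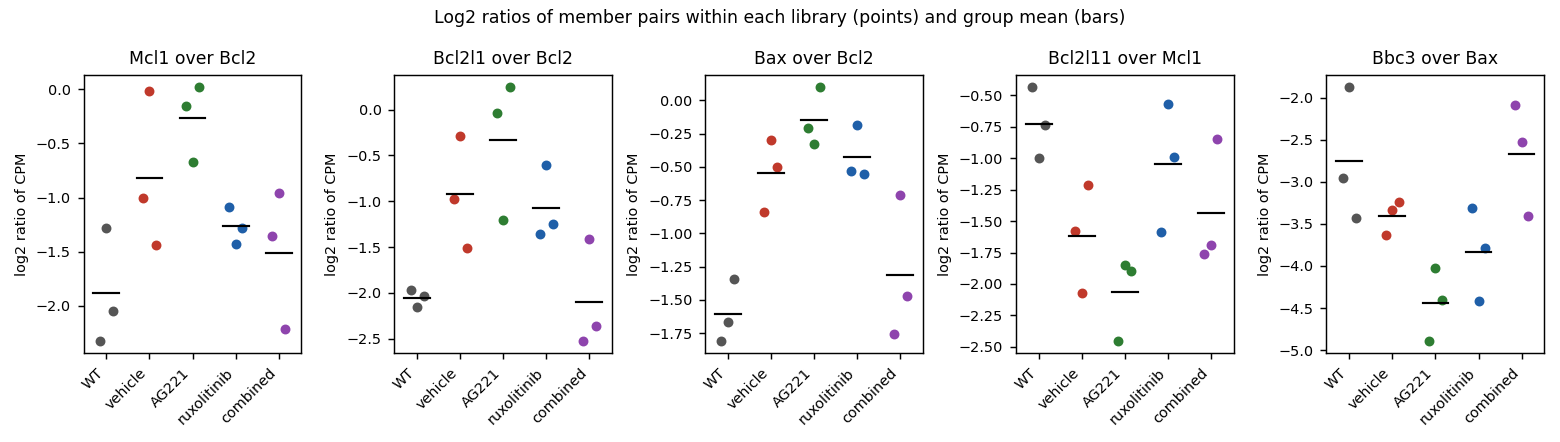
Log2 ratio of the CPM of 5 pairs of members in each library; points are libraries and bars are group means, n = 3 per group, and each panel has its own axis. The Bax to Bcl2 ratio ran from −1.81 to −1.35 in WT and from −0.84 to −0.30 in vehicle libraries, without overlap.

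The family acts through partners that were followed by lists. In vehicle against WT, 7 of 10 genes of Mcl1 turnover, the ubiquitin ligases, kinases and deubiquitinases known to control Mcl1 stability, were called lower and none higher, with a median of −1.01, where 17.9% of all genes were lower, 15.4% higher and the median was −0.091. Among them were Fbxw7, a substrate receptor for Mcl1 (−0.86, SE 0.216, adjusted p = 0.012), and Usp13, a deubiquitinase, at 0.604 to 2.33 CPM in WT and 0 to 0.113 CPM with vehicle. The 2 most abundant genes of the list went the other way in their means, without a call: Huwe1 from 185 to 236 CPM and Usp9x from 183 to 230 CPM. The summed level of the list was 516 to 592 CPM in WT and 566 to 610 CPM with vehicle, with overlap. Trim17 was also near the floor, at a mean of 0.212 CPM with vehicle. The list holds both ligases and deubiquitinases, so its calls give no direction for Mcl1 stability. With GC offsets the split of this list was 2 higher and 5 lower. Mcl1 itself, as given above, was not called. Combined treatment against vehicle called 5 of the 10 higher and 1 lower, where 8.28% of all genes were higher and 4.21% lower: Gsk3a, a kinase that marks Mcl1 for degradation (2.17, SE 0.406, adjusted p = 0.00481), and Fbxw7 (1.12, SE 0.217, adjusted p = 0.00525) were higher, and Usp9x, which removes ubiquitin from Mcl1 (−0.75, SE 0.156, adjusted p = 0.00733), was lower. Of the Gsk3a exons, 28.3% lie opposite another gene, so that its value is uncertain.

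A further list held partners at the mitochondrial membranes or the endoplasmic reticulum, among them channels, import receptors and fission and fusion proteins. In vehicle against WT, 7 of its 12 genes were called higher and none lower, where 15.4% of all genes were higher and 17.9% lower. Among the 7 were Opa1, an inner membrane fusion protein (0.63, SE 0.161, adjusted p = 0.0128), and Mtch2, a receptor for Bid (0.63, SE 0.185, adjusted p = 0.0222). Under upper quartile normalization 1 of the 12 was called. Combined treatment against AG221 called 2 higher and 6 lower (18.9% and 14.3% of all genes), among the latter Itpr1, a calcium release channel of the endoplasmic reticulum (−0.81, SE 0.199, adjusted p = 0.00907), and Mtch2 (−0.67, SE 0.185, adjusted p = 0.0156). Of the 15 apoptosome and caspase genes, 3 were called higher in vehicle than in WT, where 15.4% of all genes were, and none lower. Among the 3 were Cycs, which encodes cytochrome c (1.002, SE 0.193, adjusted p = 0.00449), and Parp1, a caspase substrate (0.63, SE 0.14, adjusted p = 0.00744). With GC offsets 10 of the 15 were higher, beside 4124 of 17751 genes. Cycs was lower with combined treatment than with AG221 (−1.23, SE 0.194, adjusted p = 0.0022).

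Of 10 tested further family members, 2 were called higher in vehicle than in WT, Bcl2l13, a mitophagy receptor (0.81, SE 0.18, adjusted p = 0.00787), and Bad, a BH3-only gene (0.61, SE 0.139, adjusted p = 0.00854). Bmf, a BH3-only gene (−1.27, SE 0.402, adjusted p = 0.0289), and Bcl2l2, which encodes the survival protein Bcl-w (−0.79, SE 0.272, adjusted p = 0.0408), were called lower. With GC offsets 2 were higher and none lower. Bcl2l2 was higher with combined treatment than with vehicle (0.96, SE 0.273, adjusted p = 0.0351), a call absent with upper quartile normalization and with GC offsets. The inhibitor of apoptosis genes gave 3 higher and 2 lower of 9 in vehicle against WT, with Birc5 (survivin, which also acts in mitosis) at 0.73 (SE 0.167, adjusted p = 0.00888) and Birc6 at −0.44 (SE 0.14, adjusted p = 0.0295). The 3 remaining calls were the Naip genes Naip1, Naip2 and Naip6, a multigene family whose reads can be split between copies. Death receptor genes gave 2 higher and 2 lower of 12, near the 15.4% and 17.9% of all genes, with 0 higher and 2 lower under upper quartile scaling and 2 higher and 1 lower with GC offsets. Among these, Ripk1, a kinase of the TNF receptor complex, was lower in vehicle than in WT (−1.15, SE 0.357, adjusted p = 0.0272) and higher with combined treatment than with vehicle (1.50, SE 0.36, adjusted p = 0.0155).

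Of 19 tested transcription factors known to act upstream of the family, 5 were called higher and 2 lower in vehicle than in WT. Of all tested genes, 15.4% were called higher and 17.9% lower there. Atf4, the integrated stress response factor known to induce Pmaip1, stood at 110 to 134.7 CPM in WT, 261.8 to 276.3 CPM with vehicle, 177 to 295 CPM with AG221, 208 to 216 CPM with ruxolitinib and 116 to 139 CPM with combined treatment. It was higher in vehicle than in WT (1.18, SE 0.165, adjusted p = 0.00079) and lower with combined treatment than with vehicle (−1.08, SE 0.164, adjusted p = 0.00229). Foxo3, which is known to induce Bcl2l11 and Bbc3, stood at 32.2 to 36.9 CPM in WT, 11.7 to 16.6 CPM with vehicle, 12.3 to 18.4 CPM with AG221, 10.7 to 15.6 CPM with ruxolitinib and 29.1 to 40.4 CPM with combined treatment. It was lower in vehicle than in WT (−1.32, SE 0.217, adjusted p = 0.00212) and higher with combined treatment than with vehicle (1.36, SE 0.217, adjusted p = 0.00262) or AG221 (1.27, SE 0.217, adjusted p = 0.00262). Both factors thus split by the same A and B names as Pmaip1 and Bcl2. Trp53 and Stat5b are added here after their values were seen. Trp53, which encodes p53, was not called in any comparison made here, with 0.34 (SE 0.15, adjusted p = 0.091) in vehicle against WT. Stat5b, a JAK2 effector, was called higher with combined treatment than with AG221 (1.38, SE 0.273, adjusted p = 0.00378) and was −0.013 (SE 0.268, adjusted p = 1) for ruxolitinib against vehicle.

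**Figure D5:**
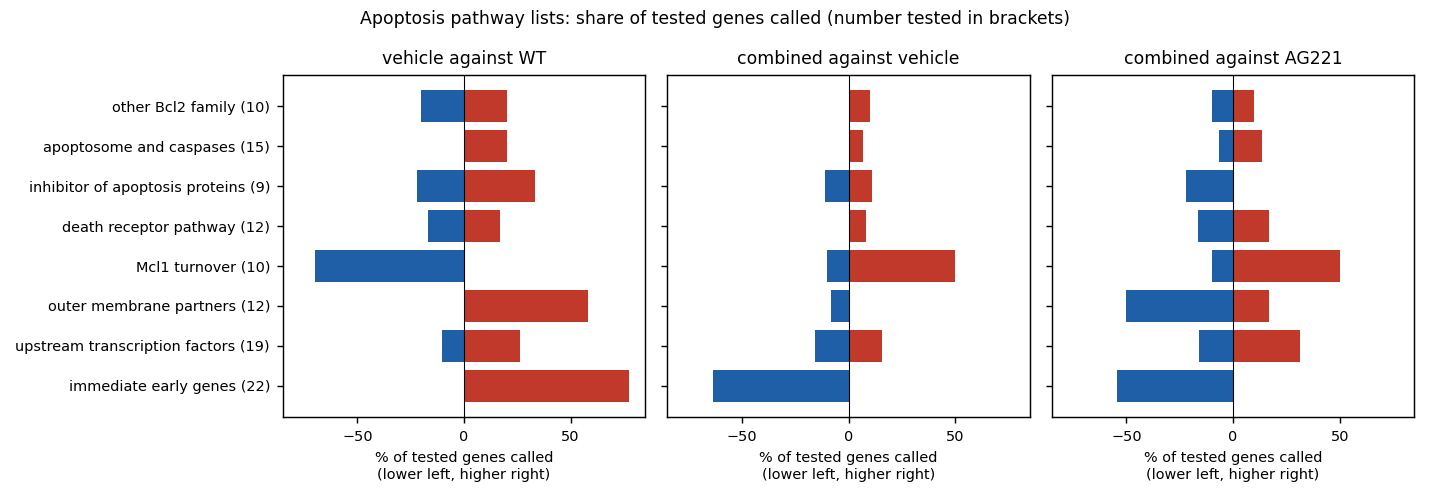
Share of the tested genes of each list (number tested in brackets) that was called higher (right, red) or lower (left, blue) in 3 comparisons, in percent. Mcl1 turnover genes were called lower for 7 of 10 in vehicle against WT and higher for 5 of 10 in both comparisons of combined treatment, and immediate early genes were called higher for 17 of 22 in vehicle against WT and lower for 14 and 12 of 22 in the comparisons of combined treatment.

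Over the 15 libraries, the genes whose log2 CPM followed each remaining member most closely were Jrkl for Bcl2 (r = 0.951), Pla2g4a for Bcl2l1 (0.922), Gm10138 for Mcl1 (0.939), Lyar for Bax (0.957), Ifitm2 for Bak1 (0.965), Klhdc8b for Bcl2l11 (0.931), Wac for Bbc3 (0.958) and Srp68 for Bid (0.955). Among the members themselves, the highest values were 0.835 for Bak1 and Bid and 0.816 for Bcl2 and Bcl2l11, and the lowest were −0.862 for Bak1 and Bcl2l11 and −0.765 for Bcl2 and Bcl2l1. After the group means were removed these were 0.545, 0.486, −0.543 and −0.763. The values share libraries, depth and group differences, and are given without a p-value.

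In the GENCODE annotation of GRCm38, all members are protein-coding. Bcl2 lies at chr1:106538178-106714274 on the minus strand, Bcl2l1 at chr2:152780668-152831728 (minus), Mcl1 at chr3:95658788-95663176 (plus) and Bcl2a1b at chr9:89199209-89207827 (plus). The effectors lie at chr7:45461697-45466898 (Bax, minus) and chr17:27019810-27029009 (Bak1, minus). The BH3-only genes lie at chr2:128126038-128162547 (Bcl2l11, plus), chr7:16308393-16318205 (Bbc3, plus), chr18:66458533-66465565 (Pmaip1, plus) and chr6:120891930-120916853 (Bid, minus). For Bcl2, 6.09% of the exons lie opposite D630008O14Rik.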

How the data were processed

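RNA-seq was made from sorted LSK cells in 5 groups of 3 libraries. The authors deposited raw counts per gene, made from SMARTer-amplified, paired-end libraries aligned with STAR 2.5.1a to mm10 and counted on an Ensembl gene model. The strand setting and Ensembl release are not given in the sources used here. A table that the authors normalized with DESeq2 1.6.3 was not used.

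From the counts, genes were filtered with filterByExpr by group, normalized by TMM and fitted with edgeR 4.0.16 (R 4.3.3) by the quasi-likelihood test over all 15 libraries, with Benjamini-Hochberg adjustment over 17834 genes. CPM use TMM-scaled library sizes. Replicates correlated at r = 0.960 to 0.987 and none were alike within counting error. Of 45232 gene IDs, 44585 had a symbol. Positions and exon lengths came from GENCODE M21. The 10 members and the lists were chosen with earlier results of these data known. All members are named. Of each pathway list up to 2 called genes in each direction with the smallest adjusted p are named, other names being marked as added. For each member the tested genes with the highest correlation of log2 CPM are given. The fit was tested on simulated data. Alternatives were RLE and upper quartile scaling, GC offsets, other count filters (none, or 10 counts in every library), a fit of the groups compared alone, DESeq2 1.42.0 and each library left out. Scalings of the lists were chosen after seeing the data. Intervals are at 95%, and count floors of 3 counts cover counting error only.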

Additional observations from a re-analysis of the deposited data

Results flagged for a closer look

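Bak1 differed between the single drugs: AG221 against ruxolitinib gave a log2 fold change of 1.28 (edgeR adjusted p = 0.0368). All 3 AG221 libraries (6.22 to 8.85 CPM) lay above all 3 ruxolitinib libraries (2.69 to 3.28 CPM). The call was lost when any library other than AG221 replicate A9 was left out (adjusted p between 0.0563 and 0.151), without a count filter (0.0669) and in a fit of the compared groups alone (0.238).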

How the results depend on the processing

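No paired analysis was possible because the groups share no replicate numbers. Of 504 results under other settings, 464 kept their direction and side of the threshold, and of 432 with 1 library left out, 370 did. The causes of the changes were not tested. With GC offsets the sign turned for Bbc3 in vehicle against WT (0.70), combined against vehicle (−0.39), AG221 against ruxolitinib (0.33), combined against AG221 (−0.37) and combined against ruxolitinib (−0.038), for Bax in AG221 against vehicle (0.27), combined against vehicle (−0.20), AG221 against ruxolitinib (0.25), combined against AG221 (−0.46) and combined against ruxolitinib (−0.21), for Mcl1 in AG221 against vehicle (0.095) and combined against AG221 (−0.019), and for Bcl2l11 in combined against WT (0.0082). With upper quartile scaling it turned for Mcl1 in AG221 against vehicle (0.15) and combined against AG221 (−0.07), and for Bax in AG221 against vehicle (0.037), combined against vehicle (−0.015), combined against AG221 (−0.052) and combined against ruxolitinib (−0.067). RLE (0.019) and DESeq2 (0.012) turned Mcl1 in AG221 against vehicle. None of these was called beforehand except Bbc3 in combined against AG221.

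With 1 library left out, uncalled values crossed 0 for Bbc3 in vehicle against WT (−0.49 to 0.24), in AG221 against vehicle for Bcl2l1 (−0.12 to 0.14), Mcl1 (−0.20 to 0.19) and Bax (−0.40 to 0.037), in ruxolitinib against vehicle for Bcl2 (−0.26 to 0.066), Bax (−0.051 to 0.20) and Bcl2l11 (−0.050 to 0.13), in combined against vehicle for Mcl1 (−0.0087 to 0.43) and Bax (−0.039 to 0.26), for Pmaip1 in AG221 against ruxolitinib (−0.061 to 0.72), in combined against ruxolitinib for Bcl2l1 (−0.25 to 0.023) and Bax (−0.068 to 0.16), and for Bcl2l11 in combined against WT (−0.17 to 0.063).

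Members called in vehicle against WT numbered 4, and 2 with upper quartile scaling, 2 with 10 counts in every library and 1 to 3 with a library left out. The most under another setting was 5, with GC offsets, which added Bax (0.75, adjusted p = 0.00803). In AG221 against vehicle none were called, 1 by DESeq2 and 0 to 3 with a library left out. In combined against vehicle 2 were called, and 1 with upper quartile scaling, with GC offsets or with any library left out. In AG221 against ruxolitinib 1 was called, 0 without a filter or with the groups alone and 0 to 3 with a library left out. In combined against ruxolitinib 2 were called, and 1 to 2 with a library left out. In combined against WT none were called, and 1 with GC offsets, without a filter or by DESeq2 and 0 to 1 with a library left out. Combined against AG221 gave 4 to 7 and ruxolitinib against vehicle 0 throughout. With mean transcript lengths 4, 6, 8, 4 and 2 members changed rank in WT, vehicle, AG221, ruxolitinib and combined cells. In vehicle against WT upper quartile scaling moved the median of all genes from −0.091 to −0.182 and the calls from 2747 higher and 3190 lower to 1306 and 3586, and GC offsets gave 4124 and 2758. Of 173 called results of list genes, 0 changed sign under 3 scalings. At 0 to 6 counts a library, Bcl2a1b could not be compared.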
